A study of Homo sapiens with 6 samples.

Results

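HEK293 cells treated with siRNA against CF Im68 were compared with HEK293 cells treated with scrambled siRNA, by counting the 3' ends of polyadenylated RNA in 1 A-seq library of each. HEK293 is a line of human embryonic kidney cells. Both libraries were chosen by their labels, and they are 2 of the 6 libraries of the series. RNA was fragmented with RNase I in both, and the cells were harvested on day 3 after transfection. The control carried the scrambled-A siRNA and the knockdown a double-stranded RNA oligonucleotide against CF Im68. The title of the knockdown library ends in the number 2, which the labels do not explain. The other 4 libraries were made from the same cell line by alkaline hydrolysis, with no siRNA, scrambled siRNA, CF Im25 siRNA or CF Im59 siRNA. They serve here as side values. Each group held 1 library, so differences could not be set against a spread between replicates, and every interval given covers the counting error of reads only.

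Cleavage factor Im is a complex that binds nascent RNA near poly(A) sites and acts in the first step of 3' end formation. Its small subunit CF Im25 contacts the RNA, and either CF Im59 or CF Im68 serves as the large partner. Many transcripts carry several poly(A) sites in tandem. Cleavage at an upstream, proximal site gives a shorter 3' end than cleavage at a downstream, distal one, and the title of the series names the factor as a regulator of that length. The comparison therefore asks which sites were used more and which less when CF Im68 was targeted.

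The siRNA strand given in the labels is shown because it ties the knockdown to a gene, and the adapter because it shows how a read end is tied to a poly(A) tail. Both run 5' to 3'. Capitals in the siRNA mark the 2 positions that the label leaves undefined, and capitals in the adapter mark the 6 A residues copied from the start of the poly(A) tail.
CF Im68 siRNA strand: NNgaccgagauuacauggaua
3' adapter: AAAAAAtggaattctcgggtgccaagg
The 19 defined bases of the siRNA strand matched transcripts of 1 gene among 206694 transcripts of GENCODE release 29. This gene was CPSF6, which encodes CF Im68. The match lay on 7 of the 8 CPSF6 transcripts, in the coding sequence of 5 of them, at chr12:69251213-69251231 on the plus strand of GRCh38. It fell in exon 2, or in exon 1 of a transcript with a retained intron. The A-seq files use the older build hg19 and were not assigned to genes, so the level of CPSF6 RNA and the HEK293 marker genes were not analysed here, and loci are given by hg19 position.

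The control library held 5351980 reads and the knockdown library 12997383, the fewest and the second most of the 6. Reads were found at 513887 nuclear positions in the control and 782923 in the knockdown, with 290403 positions in both. Mitochondrial reads made up 4.16% of the control and 8.37% of the knockdown library, and 1.07 to 1.91% of the alkaline libraries. Ends within 25 nt of a peak position were joined into a site, which gave 49695 nuclear sites. These held 91.4% of the nuclear reads of the control and 92.0% of those of the knockdown. Sites on the same strand at most 5000 nt from the next were joined into 28114 units, of which 9791 had 2 or more sites. A unit is not a gene, since it can join the ends of neighbouring transcripts.

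Site use moved towards proximal sites after CF Im68 siRNA. The 2 sites of a unit with the highest mean share of its reads over all 6 libraries form a pair. They need not be the 2 main sites of the RNase I libraries. The proximal share of a pair is the percentage of its reads at the upstream site. The share rose by 20 points or more at 1291 of 5291 loci (24.4%) that held 50 reads or more in both libraries, and it fell by as much at 94 (1.78%), or 13.7 rises for each fall. The middle of the distribution was a rise of 5.51 points, the lower quartile was -0.54 points and the upper quartile 19.5 points. The tail was long on the side of the rises, with 5% of loci below -12.0 points and 5% above 53.5 points. Rises of 60 points or more were seen at 179 loci and falls of that size at 2. Over these loci the median number of reads was 152 in the control and 342 in the knockdown. The median width of the 95% Newcombe interval for the change was 14.1 points.

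The same rule was applied to library pairs without a targeting siRNA. Between no siRNA and scrambled siRNA, both alkaline, 1.21% of 7177 loci rose and 2.52% fell, with no change of 60 points or more in either direction. Between the RNase I and the alkaline library with scrambled siRNA, 24.7% of 5014 loci rose and 21.1% fell, with 157 rises and 123 falls of 60 points or more. Calls in 1 direction were thus as frequent between fragmentation methods as after CF Im68 siRNA, but there they were nearly balanced, at 1.17 rises for each fall. No other RNase I control was among the libraries, so a difference between the 2 RNase I libraries that is not due to the siRNA cannot be told apart from its effect. Near the threshold, 323 loci rose by 15 to under 20 points and 280 by 20 to under 25 points.

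**Figure D1:**
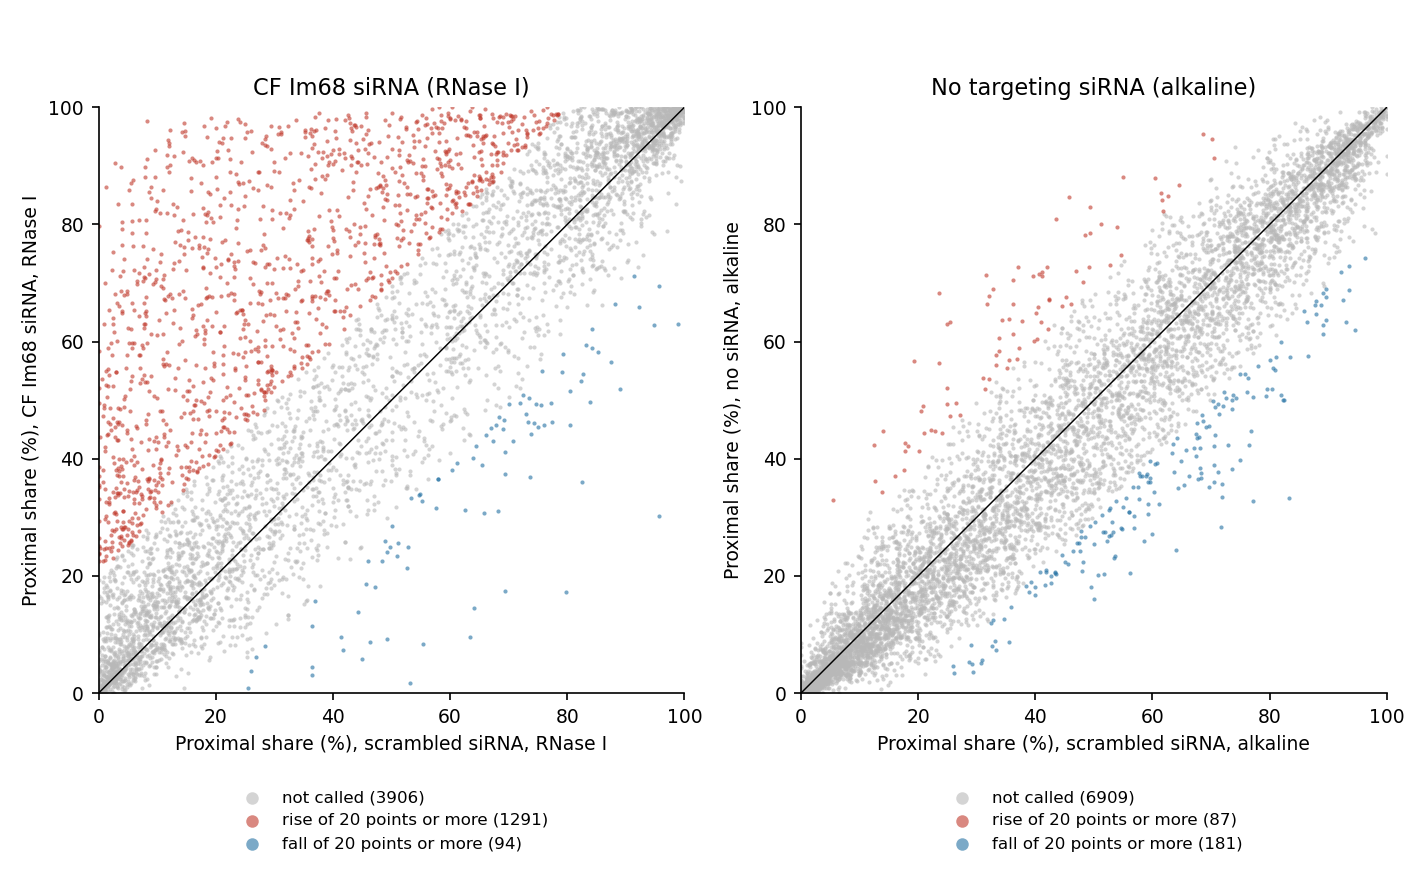
Proximal share in percent at each locus, with CF Im68 siRNA plotted against scrambled siRNA (RNase I, left) and no siRNA against scrambled siRNA (alkaline, right). Each point is 1 locus and the line marks equal shares. On the left 1291 loci rose and 94 fell by 20 points or more, and on the right 87 rose and 181 fell.

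The main site of the pair was exchanged at many loci. Of 3060 loci whose distal site held more reads in the control, 829 (27.1%) had more reads at the proximal site after CF Im68 siRNA. Of 2211 loci that favoured the proximal site in the control, 117 (5.29%) changed to the distal site. For no siRNA against scrambled siRNA the order was reversed, with 4.48% and 11.2%. Between fragmentation methods it was 24.1% and 31.8%.

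The loci with most control reads among the 521 that rose by 40 points or more show what such an exchange looked like. The largest of these by reads lay on chromosome 1, minus strand. Its proximal site, at 235275148, held 8.28% of 2898 reads in the control and 74.0% of 4680 reads after CF Im68 siRNA, against the site at 235272660. This is a rise of 65.8 points (interval 64.1 to 67.3). Level and share moved together, as the proximal site rose from 51.2 to 316 CPM and the distal site fell from 567 to 111 CPM, where CPM is the reads of a site scaled to all nuclear site reads of its library. In the alkaline libraries the same share was 20.0% with no siRNA, 13.8% with scrambled, 50.8% with CF Im25 and 13.5% with CF Im59 siRNA. The CF Im25 library was the highest of these 4.

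The chromosome 9 pair (minus strand, 88642615 and 88641062) had a proximal share of 11.1% in 1845 control reads and 67.3% in 4219 knockdown reads, a gain of 56.2 points (interval 54.1 to 58.1). Its alkaline shares were 27.0% with no siRNA, 23.8% with scrambled, 61.7% with CF Im25 and 26.2% with CF Im59 siRNA. The sum of both sites was 394 CPM in the control and 385 CPM in the knockdown, so here reads changed place with little change in the total. Sites need not lie far apart: for the chromosome 1 pair on the plus strand, 201939076 and 201939479 with a gap of 403 nt, the share went from 13.6% to 78.8% (65.2 points, interval 62.8 to 67.4). For another chromosome 1 pair, 245017717 and 245016963 on the minus strand, the share went from 22.6% to 75.01% (52.4 points, interval 49.6 to 55.1). Its alkaline shares were 57.8% with no siRNA, 57.7% with scrambled, 93.5% with CF Im25 and 70.3% with CF Im59 siRNA, so the CF Im59 library was also above the scrambled one.

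At other loci the distal site fell by more than the proximal site changed. The chromosome 5 pair on the minus strand, 137088307 and 137087263, had a share of 55.9% in the control and 98.1% in the knockdown (42.3 points, interval 39.9 to 44.6). The level of its proximal site was 210 CPM in the control and 280 CPM in the knockdown, while the distal site went from 166 to 5.38 CPM, 30.8-fold lower. A share of 43.7% became 97.1% for the chromosome 2 pair 38972036 and 38970747, also on the minus strand (53.4 points, interval 50.8 to 55.9). The proximal site stood at 155 and 139 CPM, and the distal site, 47.7-fold lower, at 200.3 and 4.198 CPM. The sum of both sites was thus lower in the knockdown. The share of the chromosome 6 pair 75963331 and 75962643 (minus strand) went from 36.3% to 89.5% (53.2 points, interval 50.1 to 56.1), with the proximal site at 99.6 and 145 CPM and the distal site at 175 and 17.1 CPM.

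The chromosome X pair on the minus strand, 20145127 and 20142645, gained 40.9 points (interval 36.8 to 44.8), from 13.0% of 2124 reads to 53.9% of 685, although the level of both sites was lower. The proximal site stood at 58.9 CPM in the control and 33.7 CPM in the knockdown, and the distal site at 394 and 28.8 CPM. A higher share can therefore accompany a lower level. The alkaline shares here were 3.395% with no siRNA, 7.06% with scrambled, 18.7% with CF Im25 and 4.91% with CF Im59 siRNA.

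For the chromosome 18 pair on the plus strand, 57570265 and 57571538, the share went from 3.53% to 46.3% (42.8 points, interval 41.0 to 44.3), while the alkaline shares were 0.114% with scrambled and 2.75% with CF Im25 siRNA. For the chromosome 13 pair on the plus strand, 98674136 and 98675330, it went from 7.03% of 1237 reads to 52.9% of 870 (45.8 points, interval 42.2 to 49.4). With scrambled siRNA and alkaline hydrolysis the same share was 81.8%, so the rise at this locus depends on which scrambled library is the control.

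**Figure D2:**
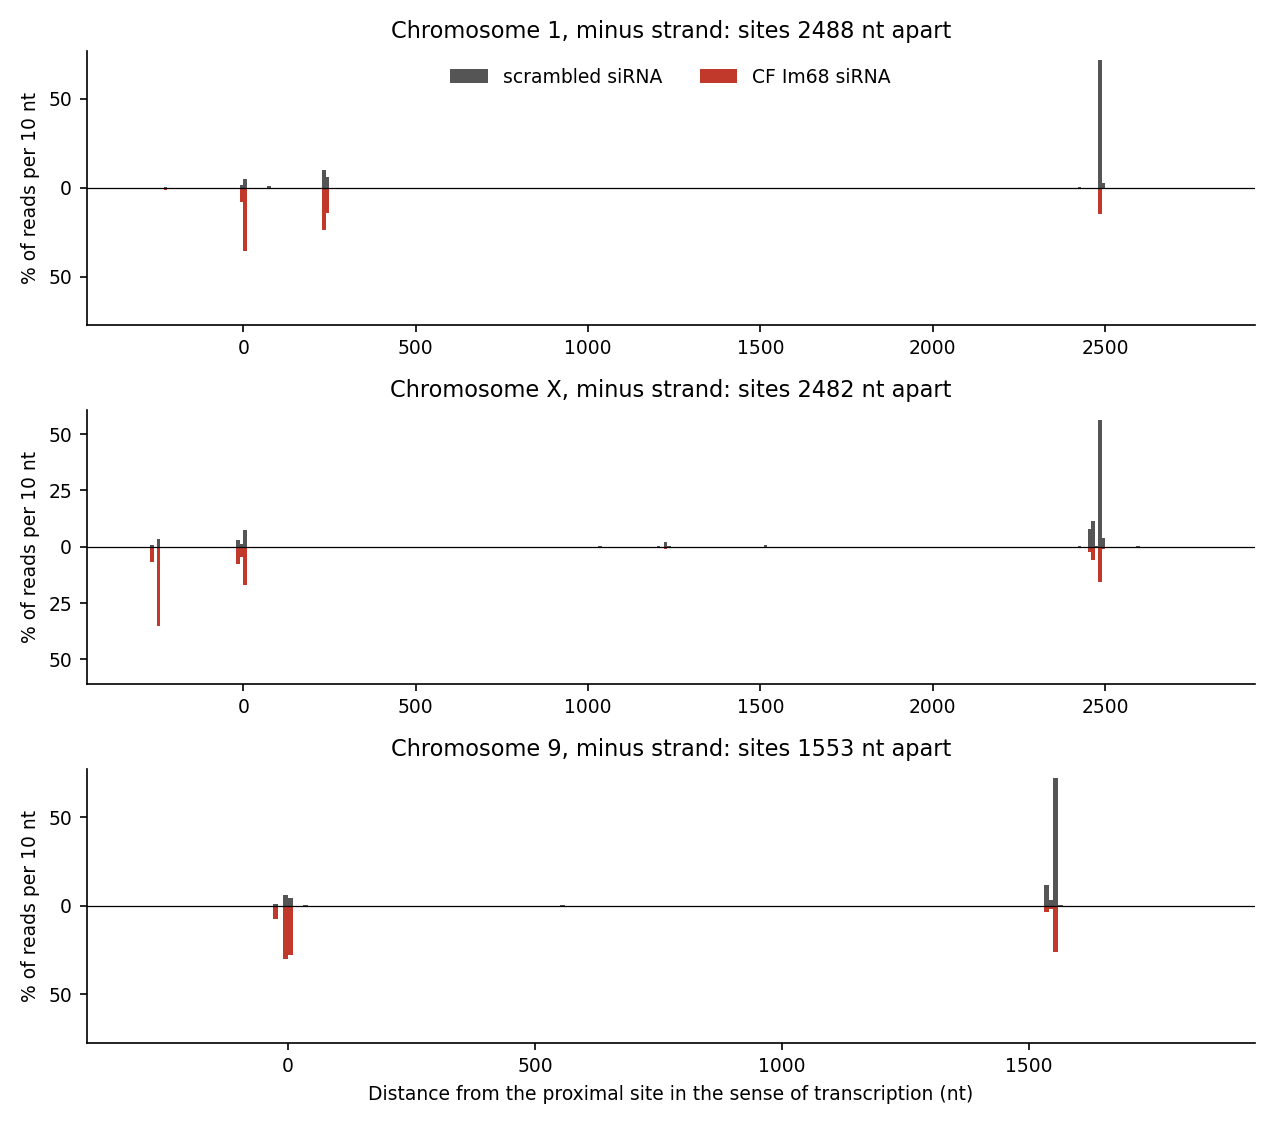
Percentage of the reads of the plotted window in each 10 nt, against the distance in nt from the proximal site, at the loci on chromosomes 1, X and 9 with most control reads among those that rose by 40 points or more. Grey bars above the line are scrambled siRNA and red bars below it CF Im68 siRNA. The tallest grey bars stand at the distal sites. The tallest red bars stand at the proximal site on chromosomes 1 and 9, and on chromosome X at a site further upstream.

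The alkaline libraries give values for the same loci that share no library with the comparison by which the rises were chosen. The sites and pairs themselves were called on all 6 libraries, the alkaline ones included. Of the 521 loci with rises of 40 points or more, 479 had enough reads to be set against CF Im25 siRNA, and 466 of these (97.3%) had a higher proximal share with CF Im25 than with scrambled siRNA. The median difference was 24.8 points, against 4.0 points and 66.2% over all loci. With CF Im59 siRNA 175 of 482 (36.3%) were higher, with a median of -1.47 points, against 40.2% of all loci. With no siRNA 162 of 486 (33.3%) were higher, with a median of -1.34 points, against 38.3% and -1.07 points over all loci. The CF Im25, CF Im59 and no siRNA differences share the alkaline scrambled library.

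The share of a pair can rise because the upstream site gained reads, because the downstream site lost them, or both. At the 1291 loci that rose, the proximal site had a median log2 ratio of CPM of 1.38 (quartiles 0.65 and 2.35), and the distal site of -1.62 (quartiles -2.46 and -0.90), with 0.5 reads added to each count. Both sites changed at least 2-fold at 516 loci (39.97%). The proximal site alone was at least 2-fold higher at 310 (24.0%), and the distal site alone at least 2-fold lower at 406 (31.4%). The remaining 59 loci (4.57%) rose in share with neither site past 2-fold. These values describe the loci that the rule selected. Over all 5291 loci, both sites changed in this way at 11.3%. The proximal site alone was higher at 12.8% of them, and the distal site alone lower at 21.8%. The median log2 ratios over all loci were 0.22 at the proximal and -0.52 at the distal site. The minimum number of reads in both libraries left out loci low in the shallower control, which favours lower ratios at both sites. At the 1291 loci that rose, the median share was 26.4% in the control and 72.7% in the knockdown. Their sites lay a median of 1.46 kb apart, compared with 0.718 kb at loci that were not called.

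**Figure D3:**
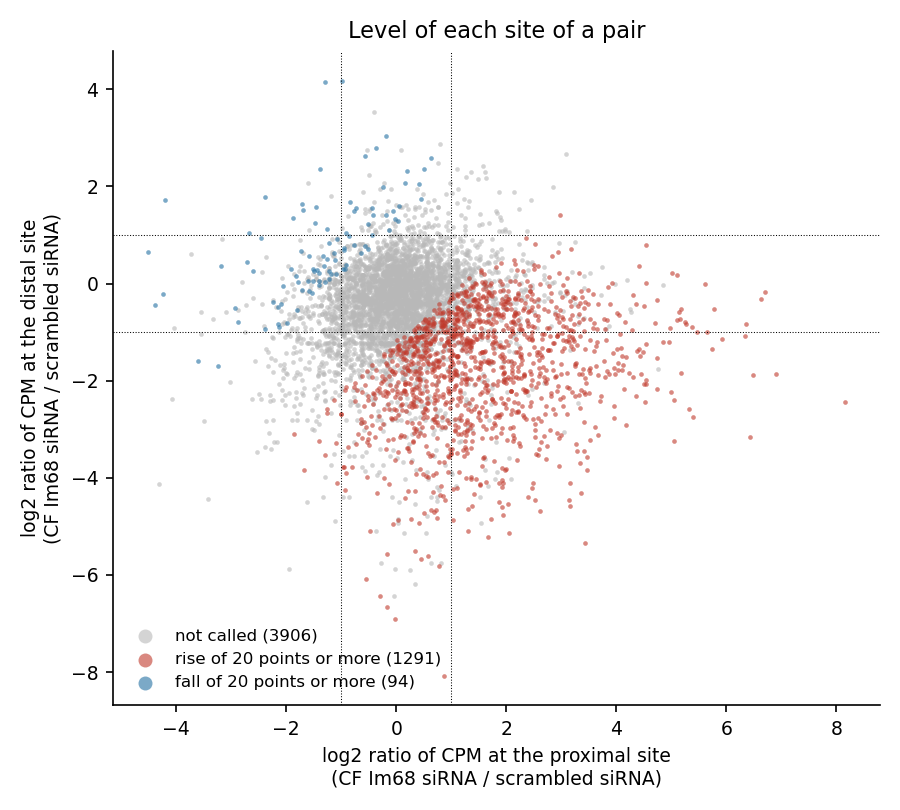
Log2 ratio of CPM, CF Im68 to scrambled siRNA, at the distal site against the proximal site of each of 5291 loci, with dotted lines at 2-fold. Red points are the 1291 loci whose share rose by 20 points or more, and they lie mostly to the lower right, where the proximal site was higher and the distal site lower.

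Loci in units with more poly(A) sites rose more often, up to units of 5 sites. The share of loci that rose was 17.0% of 1771 in units of 2 sites, 23.2% of 1360 with 3, 28.3% of 859 with 4, 33.9% of 507 with 5 and 32.7% of 794 with 6 or more. Units with more sites also had sites farther apart, with a median of 781 nt for 2 sites and 1232 nt for 5. Among pairs 1 to under 2 kb apart, the order was kept up to 5 sites: 28.1% of 303, 31.8% of 274, 44.9% of 158, 52.5% of 101 and 51.9% of 185. Falls were between 1.3% and 2.90% in every class of site number over all distances. In 4 equal groups ordered by level in the alkaline libraries, loci rose at 23.1%, 23.3%, 26.9% and 24.3%, which is no steady order with level.

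Over all sites of a unit, and not only a pair, the mean share rose at upstream places and fell at downstream ones. In 2216 units of 2 sites, the mean share of the first site rose by 6.79 points. In 1656 units of 3 sites the first gained 9.38 points, the middle one changed by 0.03 points and the last by -9.404 points. Units of 4 sites (1110) changed by 10.7, 3.34, -4.63 and -9.44 points in order along the transcript. Units of 5 sites (639) changed by 9.67, 6.96, -0.84, -6.53 and -9.25 points. The gain was thus spread over the upstream sites and the loss over the downstream ones. In 227 units of 7 sites the first changed by less (4.95 points) than the second (7.77 points), and the last 2 by -7.18 and -7.27 points.

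**Figure D4:**
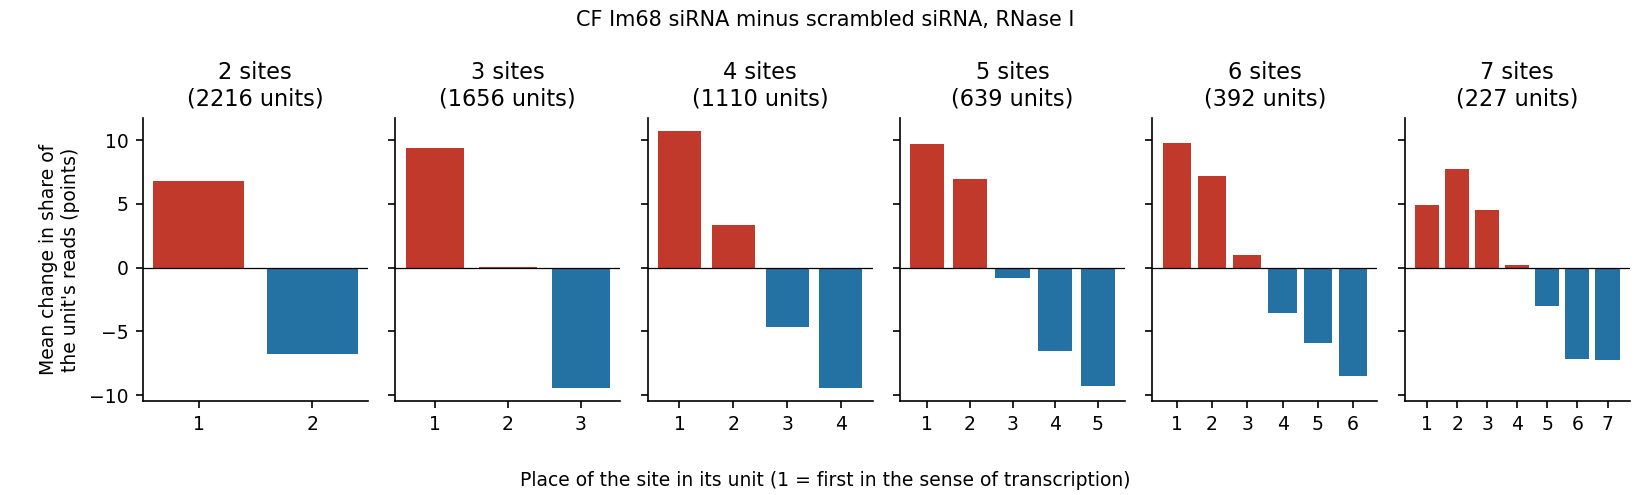
Mean change in the share of a unit's reads, in percentage points, CF Im68 minus scrambled siRNA, at each place of a site from the first to the last, for units of 2 to 7 sites. Red bars are gains and blue bars losses. In units of 4 sites the values run from 10.7 points at the first site to -9.44 points at the last.

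The mean end of a unit, the average position of its reads, lay a median of 52.3 nt upstream after CF Im68 siRNA over 6539 units. It was upstream in 74.7% of them, by 500 nt or more in 1294 (19.8%), and 500 nt or more downstream in 148 (2.26%). The median moved with the number of sites, from -5.14 nt in units of 2 sites to -54.4 nt with 3, -123 nt with 4, -209 nt with 5 and -306 nt with 6 or more. For no siRNA against scrambled siRNA the median was 6.67 nt downstream over 8191 units, 38.1% lay upstream, and 153 and 344 moved 500 nt or more upstream and downstream. There too the median grew with the number of sites, from 1.21 nt downstream with 2 sites to 44.7 nt downstream with 6 or more. Growth in nt with site number was therefore not particular to CF Im68 siRNA.

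Among units of 4 or more sites whose mean end moved at least 500 nt upstream, those with most control reads lay on chromosomes 16, 1 and 12. In the chromosome 16 unit, on the minus strand with 8 sites, the last site at 18794278 held 90.6% of 10309 reads in the control and 82.6% of 14490 in the knockdown. The fifth site, 8713 nt upstream at 18802991, went from 6.54% to 12.3%. The mean end moved by -614 nt although the main site stayed the same. In the alkaline libraries the fifth site held 4.02% with no siRNA, 8.30% with scrambled, 5.93% with CF Im25 and 6.62% with CF Im59 siRNA, so the alkaline CF Im25 library did not stand above its control here.

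The chromosome 1 unit with 9 sites contains the pair at 235275148 and 235272660. Its second site went from 6.74% to 43.6% of the unit's reads and the one at 235274913, the fourth site of the unit, from 16.1% to 38.8%. The eighth site fell from 74.6% to 15.3%. Use therefore spread over 2 upstream sites, and the mean end moved by -1409 nt. In the chromosome 12 unit, on the minus strand with 10 sites, the second site at 76443347 went from 54.3% of 3047 reads to 73.9% of 8126, and the seventh, at 76441224, from 28.0% to 4.86%. The seventh site held 0.66 to 2.53% in the alkaline libraries, so the RNase I control stood apart from the other 5 libraries there.

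Some sites differed strongly in level between the 2 libraries. Of 13879 sites with at least 10 CPM in either library, 201 (1.45%) were gained, with a level at least 8-fold higher after CF Im68 siRNA by the lower limit of the exact 95% interval, and 151 (1.09%) were lost by the reverse rule. Of the gained sites 121 (60.2%) were the first of their unit and 2 the last. Of the lost sites 88 (58.3%) were the last and 3 the first. Over all 13879 sites, 21.4% were first and 22.9% last. Between no siRNA and scrambled siRNA no site of 11943 was gained or lost, and between fragmentation methods 1201 of 15352 were gained and 480 lost in the RNase I library. Measured from the main site of the control, 187 of 197 gained sites lay upstream, at a median of -2130 nt (quartiles -3276 and -1219). Measured from the main site of the knockdown, 135 of 145 lost sites lay downstream, at a median of 1976 nt (quartiles 1232 and 2869). Such distances are not given for all 13879 sites, so these 2 counts have no base to be set against. In 23 gained sites the control had 0 reads. With the knockdown library thinned to the reads of the control, 193 sites were gained and 93 lost, so the number lost depended on depth.

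The gained sites with most reads lay on chromosomes X, 18 and 10. At 41207389 on the plus strand of chromosome X, the first of 4 sites, the control held 18.8 CPM (88 reads) and the knockdown 318 CPM (3485 reads), which is 16.9-fold (interval 13.7 to 21.2). In the alkaline libraries this site held 5.62 CPM with no siRNA, 11.5 with scrambled, 29.3 with CF Im25 and 5.12 with CF Im59 siRNA. At 150573633 on the same strand, the level went from 23.3 to 298 CPM (12.8-fold, interval 10.6 to 15.6). Its alkaline levels were 5.32 CPM with no siRNA, 4.72 with scrambled, 98.0 with CF Im25 and 9.19 with CF Im59 siRNA. The chromosome 18 site at 57570265 went from 11.3 to 225 CPM (19.9-fold, interval 15.2 to 26.6), and held 1.04 CPM with scrambled and 11.7 CPM with CF Im25 siRNA after alkaline hydrolysis. The fourth, at 89514420 on the minus strand of chromosome 10, went from 22.4 to 219 CPM (9.80-fold, interval 8.06 to 12.0), and its alkaline levels were 1.63 CPM with no siRNA, 2.53 with scrambled, 29.2 with CF Im25 and 3.21 with CF Im59 siRNA. At all 4 sites the CF Im25 library was the highest of the alkaline libraries.

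The lost site with most reads was the last of 5 on the plus strand of chromosome 3, at 23962331. It fell from 1080 CPM (5063 reads) to 125 CPM (1375 reads), 8.61-fold lower (interval 8.11 to 9.14). Its alkaline levels were 415 CPM with no siRNA, 427 with scrambled, 149 with CF Im25 and 438 with CF Im59 siRNA, the CF Im25 library being the lowest. The other 3 were distal sites already described: 20142645 on chromosome X (13.7-fold lower, interval 12.1 to 15.5), 75962643 on chromosome 6 (10.2-fold, interval 8.73 to 12.1) and 38970747 on chromosome 2 (47.7-fold, interval 35.5 to 65.6). In the alkaline libraries the last of these held 242 CPM with scrambled and 37.1 CPM with CF Im25 siRNA.

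Over the whole lists the alkaline libraries differed by siRNA. With CF Im25 siRNA, 190 of the 201 gained sites were at least 2-fold higher than with scrambled siRNA and none was 2-fold lower, with a median log2 ratio of 2.79. Of the 151 lost sites 121 were at least 2-fold lower and none 2-fold higher, with a median of -1.91. Over all 13879 sites the median was 0.09, with 2686 at least 2-fold higher and 1652 lower. With CF Im59 siRNA the median was -0.41 at gained sites, where 27 were 2-fold higher and 69 lower, and 0.21 at lost sites. Over all sites it was -0.11, with 1216 sites 2-fold higher and 1768 lower. With no siRNA the medians were -0.64 at gained, 0.05 at lost and -0.10 at all sites.

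**Figure D5:**
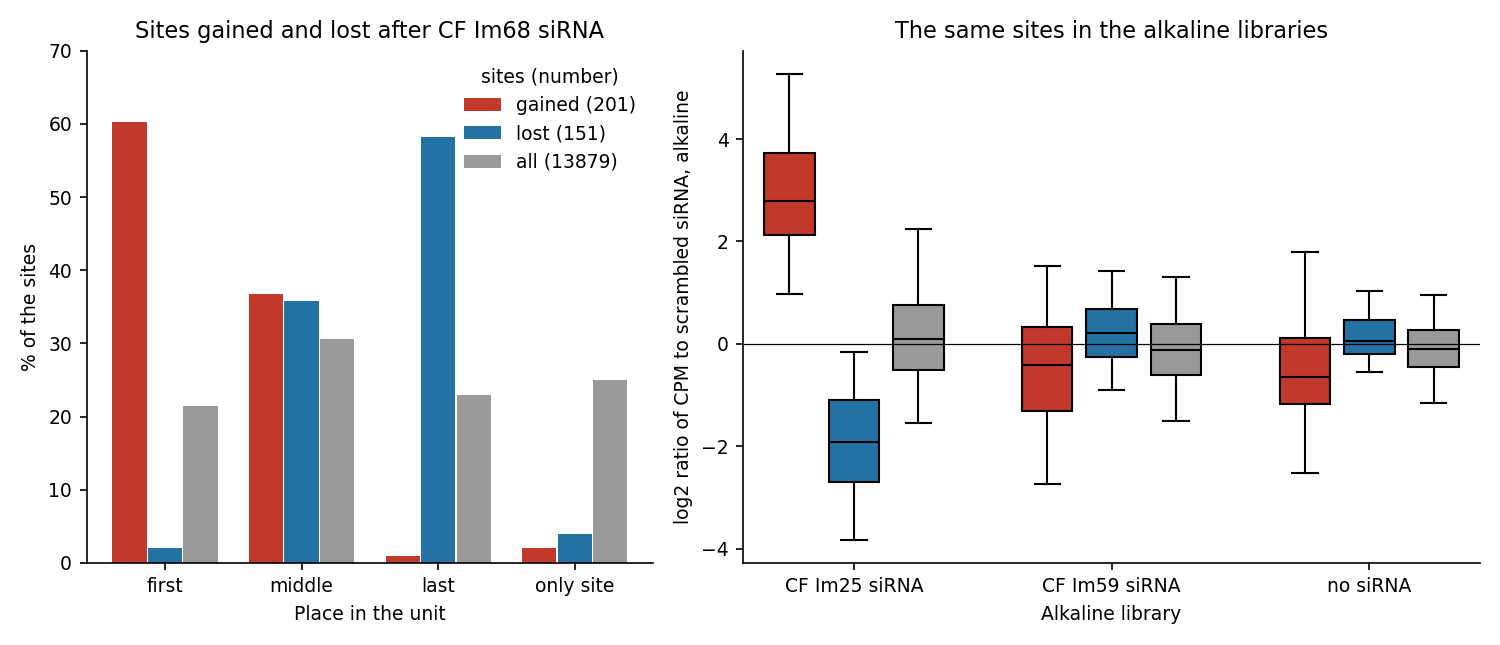
Left, percentage of gained, lost and all sites at each place in their unit. Right, log2 ratio of CPM to the alkaline scrambled siRNA library at the same sites in the other alkaline libraries, with the median as a line, the quartiles as a box and the 5th and 95th percentiles as whiskers. Gained sites are mostly first sites (60.2%), lost sites mostly last sites (58.3%), and with CF Im25 siRNA their medians were 2.79 and -1.91.

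Within a site the use of the main cleavage nucleotide changed little in the median, but large changes were more frequent than between the alkaline libraries without a targeting siRNA. The main, or modal, nucleotide of a site is the one highest in the mean of all 6 libraries at equal weight. It need not be the most used one in either RNase I library. At 6176 sites with at least 100 reads in each library, it held a median of 53.5% of the reads in the control and 52.2% in the knockdown. The median change was -0.73 points (quartiles -4.54 and 2.83), and the standard deviation of the read ends within a site had a median of 4.56 and 4.64 nt. The change was 20 points or more at 88 sites (1.42%), compared with 20 of 9822 (0.20%) for no siRNA against scrambled siRNA and 1167 of 4777 (24.4%) between fragmentation methods. Which nucleotide held most reads differed at 659 sites (10.7%), and by more than 5 nt at 362. This compares with 5.69% of sites for no siRNA against scrambled siRNA and 21.7% between fragmentation methods.

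Sites whose top nucleotide differed and whose share at the modal nucleotide changed by 20 points or more numbered 42. On chromosome 12, plus strand, the nucleotide 96259918 held 67.8% of 1040 reads in the control and 42.9% of 1402 in the knockdown, where the nucleotide 6 nt upstream held 43.8%. The alkaline libraries held between 46.0% and 53.6% at the first of these. On chromosome 5, minus strand, the nucleotide 20555522 held 37.2% of 532 reads in the control and 89.2% of 954 in the knockdown, with 91.1 to 94.5% in the alkaline libraries. The chromosome 11 nucleotide 130689179, on the plus strand, held 26.7% of 529 reads in the control and 57.2% of 1361 in the knockdown, with 49.5 to 61.0% in the alkaline libraries. At the chromosome 5, 11 and 12 sites the share in the knockdown was closer to the alkaline shares than that in the RNase I control. The scored nucleotide was chosen on the mean of all 6 libraries, most of them alkaline. The sites were then kept for a difference between control and knockdown. At the chromosome 5 and 11 sites, where the share rose, this choice favours such closeness, so nothing about the control is read from it.

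Falls in the proximal share were few. At the 94 loci that fell, the median share was 67.6% in the control and 38.6% in the knockdown, with log2 ratios of -1.31 at the proximal and 0.64 at the distal site. With CF Im25 siRNA the share was lower than with scrambled siRNA at 62 of 83 such loci, with a median of -6.35 points, and 33.6% of all loci were lower. With CF Im59 siRNA 46 of 82 (56.1%) and with no siRNA 45 of 83 (54.2%) were lower, against 59.5% and 61.5% of all loci. The locus with most control reads, on the plus strand of chromosome 2, went from 83.2% of 1282 reads to 59.4% of 1484 at 171608354 against 171608547 (-23.8 points, interval -27.0 to -20.5). Its alkaline shares were between 2.94% and 9.47%, far below both RNase I libraries. The chromosome 6 pair 99848751 and 99847843 (minus strand) went from 58.0% to 36.5% (-21.5 points, interval -24.8 to -18.2), and its alkaline shares were 62.0% with scrambled and 50.5% with CF Im25 siRNA.

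The other 4 named falls differed in size, from -23.0 to -37.1 points, and in baseline. The chromosome 6 plus strand site at 114182350 went from 49.0% to 26.0%, and was at 5.70 to 21.8% in alkaline material. The chromosome 13 minus strand site at 77455988 went from 47.2% to 18.1%, with alkaline shares of 3.32 to 7.39%. The chromosome 11 minus strand site at 22848827 went from 76.0% to 45.7%, with 9.09 to 24.3%. At these 3 loci and at the chromosome 2 locus, the knockdown lay between the RNase I control and the alkaline libraries. The chromosome 1 minus strand pair at 212224827 and 212224793, which are 34 nt apart, went from 68.1% to 31.1%, and its alkaline shares were 89.5 to 91.2%.

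The total of a unit, summed over its sites, is a measure of how much polyadenylated RNA of that locus was recovered. Of 10717 units with at least 10 CPM in either library, 901 (8.41%) were at least 2-fold higher after CF Im68 siRNA and 967 (9.02%) at least 2-fold lower, with the exact 95% interval of the ratio excluding 1. The median log2 ratio was 0.01. For no siRNA against scrambled siRNA 248 of 10446 units were higher and 388 lower. The balance of the calls depended on scaling: higher units were 48.2% of the calls by CPM, 60.4% with TMM scaling and 61.4% by the median of ratios, which moved all units by 0.12 and 0.13 on the log2 scale. CPM left mitochondrial reads out of the denominator. The share of mitochondrial reads, 4.16% and 8.37%, differed between the libraries, and its part in the totals was not tested.

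Units whose pair rose in proximal share were higher in total in 122 of 1291 cases and lower in 136, with a median log2 ratio of -0.04. In units with a pair that was tested but not called, 95 of 3906 were higher, 295 lower and the median was -0.08. Of units with a fall, 5 of 94 were higher and 15 lower, with a median of -0.23. Units of 1 site, which have no choice of site, were higher in 354 and lower in 325 of 3475 cases, with a median of 0.06. These medians were computed by CPM only. Units with a tested pair had to hold the minimum number of reads in both libraries, and the control was the shallower one. The same number of reads is a higher CPM there, so the rule dropped units low in the control and favoured lower totals. Units of 1 site passed on their level in either library. The classes with a pair therefore cannot be set against units of 1 site, and their lower totals cannot be ascribed to the siRNA.

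The named totals had the most reads among the 208 units at least 4-fold higher and the 154 at least 4-fold lower. The chromosome 4 plus strand unit from 177248393 to 177253395 went from 103 to 413 CPM (4.03-fold, interval 3.67 to 4.44), and its alkaline levels were 46.7 CPM with scrambled and 371 with CF Im25 siRNA. The chromosome 5 minus strand unit from 167981719 to 167984529 went from 44.8 to 248 CPM (5.54-fold, interval 4.81 to 6.40), with 73.3 and 241 CPM in those libraries. The chromosome 10 plus strand unit from 89720812 to 89728672 went from 48.2 to 199 CPM (4.12-fold, interval 3.59 to 4.75), with 41.7 and 123 CPM. All 3 were thus higher with CF Im25 than with scrambled siRNA. The chromosome 7 minus strand unit from 123181084 to 123182113 went from 49.5 to 231 CPM (4.67-fold, interval 4.08 to 5.37), but held 7.26 and 13.0 CPM there, with 13.2 CPM with no siRNA and 12.0 CPM with CF Im59 siRNA. Of its reads in the knockdown 84.7% lay at 1 nucleotide.

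Among the lower units, the chromosome 1 minus strand unit from 6245081 to 6246347 went from 235 to 56.2 CPM (4.18-fold lower, interval 3.79 to 4.62), against alkaline levels of 588 CPM with scrambled and 177 with CF Im25 siRNA. The chromosome 15 minus strand unit from 69070877 to 69072213 went from 216 to 48.8 CPM (4.43-fold lower, interval 3.99 to 4.93), with 100.2 and 71.1 CPM there. The chromosome 1 minus strand unit from 220321636 to 220324438 went from 121 to 26.2 CPM (4.60-fold lower, interval 3.99 to 5.32), with 108 and 47.4 CPM. At each of these 3 the CF Im25 library was the lower one. The chromosome 12 plus strand unit from 1310478 to 1325245 went from 211 to 46.0 CPM (4.58-fold lower, interval 4.11 to 5.11), while CF Im25 siRNA gave 150 CPM against 96.8 CPM with scrambled siRNA.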

How the data were processed

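Per the labels' protocols, poly(A) RNA of HEK293 cells was fragmented with RNase I and reverse transcription was primed at the start of the poly(A) tail. The authors deposited counts: whole, unscaled numbers of reads ending at each nucleotide and strand, 1 file per library. The submitters' processing notes name hg19 and GRCh37. For the aligner, for filters on reads and for the handling of duplicates and internal priming, the sources used here give nothing. Copies made by PCR are not independent molecules, so counting intervals can be too narrow.

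Sites were called once on all 6 libraries, pooled at equal weight: the highest position with all ends within 25 nt, repeated, and kept at a mean of at least 1 CPM. Sites of 1 strand with gaps of at most 5000 nt formed units. A pair is the 2 sites of a unit with the highest share of its reads in the mean of the 6 libraries, where each held at least 5%. A share was called changed at 20 points, with 50 reads in each library and a 95% Newcombe interval without 0. Totals needed a 2-fold ratio, 10 CPM in 1 library and an exact 95% interval without 1. Gained and lost sites needed 10 CPM and 8-fold at the limit of that interval, and cleavage nucleotides 100 reads. With 1 library per group these are rules of size, and no p-value is given. Minimum levels of totals were set in CPM because a minimum in reads admits more units through the deeper library. Named pairs are the 10 rises of at least 40 points and the 6 falls with most control reads. Named units, totals, sites and nucleotides are likewise those with most reads: 3 units moved by 500 nt or more, 4 totals changed 4-fold and 4 sites in each direction, and 3 nucleotides. The members and lists were chosen with earlier results of these data known. Alternatives varied the minimum reads, the site and unit windows, the threshold, the control and the scaling (TMM of edgeR 4.0.16 and median of ratios of DESeq2 1.42.0, in R 4.3.3, used for scaling factors only). Python 3.11.15, numpy 2.4.6, pandas 2.3.3, scipy 1.17.1, numba 0.67.0 and matplotlib 3.10.9 were used, and the calls were tested on simulated data.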

Additional observations from a re-analysis of the deposited data

Results flagged for a closer look

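Mitochondrial reads, which no comparison above uses, were 8.37% of the CF Im68 siRNA library (1088487 reads, exact 95% interval 8.36 to 8.39) and 4.16% of its RNase I control (222579 reads, interval 4.14 to 4.18). They stood out as a signal outside the nuclear measurement that was above the level in the control. The 4 alkaline libraries held 1.07 to 1.91%.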

How the results depend on the processing

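No paired analysis was possible because each group held 1 library. Of 89 alternative values over the 9 results, 45 stayed within 1.5 times of a count or within the 95% interval of a median over loci, 43 moved further and 1 changed sign. Thinning, which draws reads down to a common library total, gave 1115 rises and 80 falls of 4641 loci. It gave 193 gained and 93 lost sites, against 201 and 151 at full depth. With every position counted as 1 read, 8 loci had enough reads, and the counts of rises and falls were 0 and 0 with a median change of -1.86 points. This setting caps each site at the positions within 25 nt of its peak, so few loci could reach 50. It could hardly show a shift in use, and no direction is read from its change of sign. Rises, falls and the median change in points were, with at least 100 reads, 803, 49 and 4.76, and with at least 1 read 2191, 278 and 5.93. A minimum of 20 reads gave 202 falls and a median of 6.01. A threshold of 10 points gave 1985 rises and 318 falls, and 30 points gave 816 and 30. Sites called on the RNase I libraries alone gave 146 falls and a median of 7.16. Other medians were 6.78 (sites with 10% of the reads), 6.12 (first and last site), 3.73 (half-window 10 nt), 6.16 (50 nt) and 4.84 (unit gap 10 kb). The mean end moved by -25.1 nt with a gap of 2 kb, -64.0 nt with 10 kb and -45.0 nt with at least 100 reads. At 20 CPM 116 sites were gained and 87 lost.

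The alkaline scrambled library as the control changed most results: 2523 rises, 904 falls, a median change of 12.3 points, a mean end of -71.5 nt, -9.01 points at the modal nucleotide, 1776 gained and 1201 lost sites, and 3603 higher and 3691 lower totals. Higher totals numbered 1511 with a minimum of 50 reads in 1 library, where 942 were lower. They numbered 529 against 557 lower at 20 CPM, 2037 against 3285 with no minimum, and 208 against 154 at 4-fold. TMM gave 1131 and 742, and median of ratios 1166 and 732. Leaving out sites with over 90% of reads at 1 nucleotide, an alternative chosen after seeing the data, left 196 gained and 144 lost sites. Depth was lowest in the RNase I control, where the median locus had 152 reads.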
